A study of Mus musculus with 16 samples.

Results

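Interferon-stimulated genes are the transcripts that rise when a cell is exposed to interferon, and 41 of them were followed here in sorted epithelial cells of the mouse gut. The members were chosen by name from textbook knowledge of the response and not by their values, although results of these data were already known when they were chosen. They split into 29 genes typical of type I and type III interferon (called type I/III-like) and 12 typical of interferon gamma (called gamma-like), a split that is loose because many genes answer to both. All 41 were among the 46882 genes of the deposited count tables, and all 41 were among the 16001 genes with enough counts to be tested.

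Every library came from RedMUC298trTg mice of 6 to 8 weeks, a reporter strain in which the red fluorescent protein mCherry marks goblet cells, the mucus-secreting cells of the epithelium. The epithelium was stripped with EDTA, treated with collagenase and DNase, and live cells were sorted by their mCherry signal, with a C57Bl6 animal used to set the negative gate. Goblet cells (mCherry-positive) and the remaining mCherry-negative epithelium were taken from the distal colon (DC) and from section 8 of the small intestine (Si8), giving 4 groups of 4 libraries: DC goblet cells, other DC cells, Si8 goblet cells and other Si8 cells. The labels call the mCherry-negative sorts colonocytes and enterocytes, but these sorts hold whatever epithelium lacks mCherry, and they are called other DC cells and other Si8 cells here. The labels tie no library to an animal, so the spread behind each p-value is that of these samples and may be technical. Goblet RNA was purified on MinElute columns and the RNA of the other cells on Mini columns, so that cell type and column cannot be told apart.

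Interferons are secreted alarm signals that bind receptors on neighbouring cells, and those receptors act through Janus kinases and STAT proteins. Type I and type III interferon activate a complex with Stat2 and Irf9 that binds the interferon-stimulated response element (ISRE) in promoters, whereas interferon gamma acts through the gamma-activated site (GAS). In the gut epithelium, type III interferon is known as a main antiviral signal, and interferon gamma from lymphocytes is known to induce antigen presentation and guanylate-binding proteins.

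Total counts per library were 11915081 to 18530171 in DC goblet cells, 14886439 to 17693513 in other DC cells, 37439139 to 40533313 in Si8 goblet cells and 30839377 to 41075589 in other Si8 cells. Levels are given as CPM, the usual abundance unit that scales each library's counts to a common total. As a check of the sort, Muc2, the gel-forming mucin of goblet cells, had 9308 to 10716 CPM in DC goblet cells against 32.3 to 47.3 CPM in other DC cells, and 24139 to 62838 CPM in Si8 goblet cells against 24.99 to 90.1 CPM in other Si8 cells. All 8 goblet markers were called higher in goblet cells in both regions. The Si8 goblet sort also held Paneth cell transcripts, with a sum over 5 markers of 12042 to 32219.9 CPM against 659 to 1759 CPM in other Si8 cells. Genes of the mitochondrial genome were listed at 0 in every DC library and took 3.19 to 8.36% of the counts in Si8, so the DC and Si8 tables were not made alike, and region and table cannot be told apart.

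The promoter sequences of the members were searched for the letters of both elements. RefSeq promoters (GRCm38.p6, 250 bases before to 50 after the start) were available for 30 of the 41 members. The ISRE core, searched as GAAA, any 2 bases and GAAA again on both strands, lay in the promoter of 17 of these 30 members (56.7%). It lay in 3.99% of all 27025 genes of the RefSeq promoter set and in 3.76% of the 10713 tested genes with a promoter. GAS, searched as TTC, any 3 bases and GAA on both strands, lay in 8 of 30 members (26.7%). The shares were 9.55% of the 27025 genes and 8.52% of the 10713. Both motifs lay in 4 of 30 members (13.3%), against 0.614% and 0.625%. By subset, the ISRE core was in 12 of 21 type I/III-like promoters (57.1%) and 5 of 9 gamma-like promoters (55.6%), and GAS in 4 of 21 (19.0%) and 4 of 9 (44.4%). The 2 motifs can overlap, and a match is a description of letters, not evidence of binding. The windows below show an ISRE core, in capitals, in genes on which the results turn: Ifit1, Isg15 and Oas3 were lower in DC goblet cells, Bst2 was higher, Gbp2 went opposite ways in the 2 regions, and Rsad2 was called in no comparison.
Ifit1, chr19:34640789-34640828, plus strand: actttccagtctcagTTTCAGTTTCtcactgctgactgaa
Isg15, chr4:156200860-156200899, minus strand: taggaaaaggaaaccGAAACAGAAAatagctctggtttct
Oas3, chr5:120777710-120777749, minus strand: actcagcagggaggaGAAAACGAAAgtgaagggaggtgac
Bst2, chr8:71537572-71537611, minus strand: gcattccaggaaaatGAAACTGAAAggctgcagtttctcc
Rsad2, chr12:26456548-26456587, minus strand: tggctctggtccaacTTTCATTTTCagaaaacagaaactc
Gbp2, chr3:142620589-142620628, plus strand: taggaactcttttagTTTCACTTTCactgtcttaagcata
A GAS match, also in capitals, is shown for Irf1 and Psmb8, gamma-like genes that were lower in goblet cells of both regions and held a GAS but no ISRE core in this window, whereas Tap1, also lower in both, held neither.
Irf1, chr11:53769909-53769947, plus strand: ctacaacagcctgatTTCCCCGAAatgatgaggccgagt
Psmb8, chr17:34198083-34198121, plus strand: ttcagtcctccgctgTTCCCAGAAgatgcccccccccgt

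In the distal colon, the goblet cell sort held less of most interferon-stimulated transcripts than the other cells. Of the 41 members, edgeR called 26 lower (63.4%, against 27.9% of all tested genes called lower) and 3 higher (7.32%, against 27.8% called higher), and 12 were not called. The median log2 fold change, goblet over other cells, was −0.94 for the members and 0.03 for all tested genes. Among the 29 type I/III-like genes 21 were lower, 1 was higher and the median was −1.07. The 12 gamma-like genes had 5 lower, 2 higher and a median of −0.34. The goblet libraries lay wholly below the other libraries for 28 of 41 members, a pattern that 27.2% of all tested genes showed, and wholly above for 3, against 26.7%. In sorted bulk libraries, fewer cells that express a gene and less RNA per cell cannot be told apart.

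**Figure D1:**
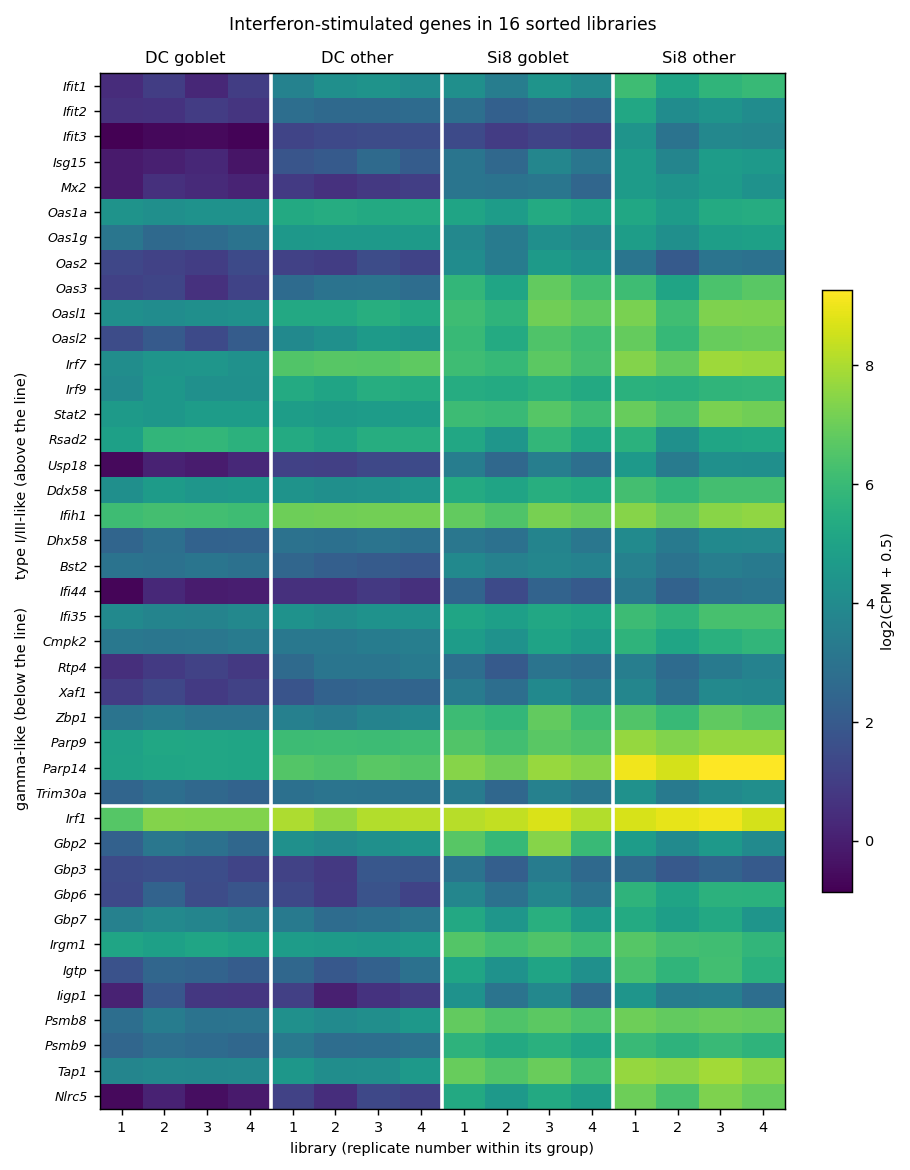
Level of the 41 members (rows) in each of the 16 libraries (columns, numbered by replicate within group), as log2(CPM + 0.5). Genes above the white line are type I/III-like and those below gamma-like, and most rows are darkest (lowest) in the DC goblet columns, with Bst2, Gbp7 and Irgm1 among the exceptions.

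The IFIT proteins, which bind foreign RNA, included the 2 members with the largest DC differences, Ifit3 and Ifit1. Ifit1 had 0.837, 1.47, 0.711 and 1.48 CPM in DC goblet cells, against 11.8, 17.8, 20.1 and 16.1 CPM in other DC cells. Every DC goblet library was below every other library, and the log2 fold change was −3.87 ± 0.34 (SE, adjusted p = 5.35e-08), or 14.6-fold lower. Ifit3 had 0.0523, 0.147, 0.164 and 0.0926 CPM in DC goblet cells, against 1.84, 2.08, 2.33 and 2.42 CPM in other DC cells. That DC goblet level of Ifit3 rests on 8 counts over the 4 libraries, and its log2 fold change was −4.23 ± 0.48 (SE, adjusted p = 3.64e-07). Ifit2 had 0.994, 1.03, 1.42 and 1.11 CPM in DC goblet cells, against 6.52, 5.59, 5.63 and 5.86 CPM in other DC cells, and its log2 fold change was −2.37 ± 0.30 (SE, adjusted p = 2.6e-06). None of the 3 genes overlapped between the groups.

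Isg15, a ubiquitin-like protein that is joined to other proteins during the response, and Usp18, the protease that removes it and also damps receptor signalling, were both lower in DC goblet cells. Isg15 had 0.419, 0.515, 0.711 and 0.324 CPM in DC goblet cells, against 3.05, 3.57, 5.83 and 3.75 CPM in other DC cells. The lowest other library was thus above every goblet library, and the log2 fold change was −3.04 ± 0.44 (SE, adjusted p = 1.37e-05). Usp18 had 0.157, 0.588, 0.438 and 0.741 CPM in DC goblet cells, against 1.63, 1.60, 2.01 and 2.17 CPM in other DC cells, with a log2 fold change of −1.93 ± 0.47 (SE, adjusted p = 0.00206). Mx2, of a family of GTPases that restrict viruses, differed less. The GENCODE M21 annotation lists it as a polymorphic pseudogene, and whether its transcript gives a working protein was not tested. Mx2 had 0.419, 0.956, 0.766 and 0.602 CPM in DC goblet cells, against 1.31, 1.01, 1.30 and 1.51 CPM in other DC cells, and the log2 fold change was −0.94 ± 0.29 (SE, adjusted p = 0.00949). The DC goblet levels rest on few counts over the 4 libraries, 35 each for Isg15 and Usp18 and 48 for Mx2.

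The oligoadenylate synthetase family, whose active members sense double-stranded RNA and switch on RNase L, was split in DC. Oasl2 had 2.30, 3.53, 2.19 and 3.80 CPM in DC goblet cells, against 14.9, 18.2, 24.5 and 21.1 CPM in other DC cells, a log2 fold change of −2.73 ± 0.33 (SE, adjusted p = 3.7e-06). Oas3 was next, with 1.62, 1.91, 0.985 and 1.76 CPM in DC goblet cells, against 5.94, 7.61, 7.83 and 6.22 CPM in other DC cells and a log2 fold change of −2.14 ± 0.52 (SE, adjusted p = 0.00311). For Oasl1 the DC goblet libraries held 17.8, 16.1, 17.7 and 18.8 CPM, against 37.8, 38.1, 45.1 and 38.1 CPM in other DC cells, at −1.17 ± 0.28 (SE, adjusted p = 0.00259). Groups did not overlap for these 3 genes, nor for Oas1a (17.6 to 19.7 CPM in DC goblet cells, against 39.2 to 42.3 CPM in other DC cells) and Oas1g (5.51 to 8.21 against 22.8 to 24.8 CPM), which were called lower as well. Oas2 was not called: it had 1.94, 1.69, 1.48 and 2.18 CPM in DC goblet cells, against 1.63, 1.49, 2.33 and 1.75 CPM in other DC cells, and its log2 fold change was 0.04 ± 0.36 (SE, adjusted p = 0.945).

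Transcription factors of the response did not move alike in DC. Irf7, which amplifies the production of type I interferon, had 16.7, 20.95, 21.7 and 18.98 CPM in DC goblet cells, against 92.1, 98.6, 95.8 and 108 CPM in other DC cells. With no overlap, its log2 fold change was −2.33 ± 0.20 (SE, adjusted p = 2.55e-08), or 5.04-fold lower. Irf9, the DNA-binding subunit of the complex, was also lower, at 15.5 to 22.1 CPM in DC goblet cells against 32.9 to 42.8 CPM in other DC cells and a log2 fold change of −1.07 ± 0.11 (SE). Its partner Stat2 was not called: 24.6, 22.3, 25.99 and 25.9 CPM in DC goblet cells, against 26.6, 24.7, 25.9 and 26.6 CPM in other DC cells, and a log2 fold change of −0.07 ± 0.15 (SE, adjusted p = 0.712). The ranges of Stat2 overlapped.

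Among RNA sensors, Ddx58 (the gene of RIG-I) was not called, with 17.9, 25.7, 21.8 and 22.5 CPM in DC goblet cells, against 19.8, 17.9, 18.8 and 21.9 CPM in other DC cells and a log2 fold change of 0.16 ± 0.12 (SE, adjusted p = 0.260). Ifih1, which senses long double-stranded RNA, was lower, at 68.6 to 75.6 CPM in DC goblet cells against 131 to 138 CPM in other DC cells (−0.92 ± 0.13, SE), and so was their relative Dhx58 (−0.48 ± 0.19, SE). The Dhx58 call was lost in 8 of 24 alternatives, among them the fits without any 1 replicate of the other DC cells or without goblet replicate 1, 3 or 4 (adjusted p up to 0.114). Parp14, a mono-ADP-ribosyltransferase, had 30.9, 34.2, 34.4 and 33.7 CPM in DC goblet cells, against 92.6, 85.9, 101 and 94.8 CPM in other DC cells. This was a narrow spread on both sides, and the log2 fold change was −1.49 ± 0.13 (SE, adjusted p = 1.31e-08). Rtp4, a chaperone of receptor transport with antiviral activity, had 0.942, 1.32, 1.70 and 1.25 CPM in DC goblet cells, against 5.83, 7.96, 7.96 and 9.12 CPM in other DC cells, a log2 fold change of −2.57 ± 0.29 (SE, adjusted p = 3.74e-07). Parp9, Ifi44, Ifi35 and Xaf1 were also called lower (Ifi44 not without goblet replicate 1 or replicate 3 of the other cells, adjusted p up to 0.0799), whereas Cmpk2, a mitochondrial nucleotide kinase, Zbp1, a sensor of Z-form nucleic acid, and Trim30a were not. For Ifi35 the values were 15.02, 12.7, 12.2 and 14.3 CPM in DC goblet cells, against 19.1, 16.9, 19.04 and 19.2 CPM in other DC cells (−0.45 ± 0.12, SE), and Cmpk2 had 8.58, 8.23, 8.32 and 9.63 CPM against 8.72, 8.62, 9.97 and 10.5 CPM (−0.12 ± 0.17 (SE, adjusted p = 0.574)). The 4 goblet libraries of Zbp1 (7.69, 9.56, 7.77 and 7.73 CPM) lay just below the others (11.3, 9.69, 12.2 and 13.7 CPM), but its log2 fold change of −0.52 ± 0.23 (SE, adjusted p = 0.0612) did not pass.

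Bst2, the tetherin that holds budding virions at the cell surface, was the only type I/III-like gene called higher in DC goblet cells. It had 7.48, 7.13, 8.04 and 7.17 CPM in DC goblet cells, against 5.04, 4.10, 3.63 and 3.26 CPM in other DC cells. Every goblet library was above every other library, and the log2 fold change was 0.89 ± 0.16 (SE, adjusted p = 9.32e-05). Rsad2 (viperin), an enzyme that makes a chain-terminating nucleotide, was not called: it had 29.4, 55.4, 57.5 and 49.4 CPM in DC goblet cells, against 40.1, 32.9, 42.8 and 43.3 CPM in other DC cells.

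The gamma-like genes of DC went both ways. Nlrc5, the transactivator of MHC class I genes, was scarce in both sorts, with 0.157, 0.588, 0.219 and 0.417 CPM in DC goblet cells, against 1.73, 0.891, 2.01 and 1.63 CPM in other DC cells (−2.22 ± 0.52 (SE, adjusted p = 0.00160)). Among the guanylate-binding proteins, which attack the membranes of intracellular pathogens, Gbp2 had 4.40, 8.45, 7.06 and 5.23 CPM in DC goblet cells, against 18.02, 15.3, 18.001 and 20.3 CPM in other DC cells. Gbp2 did not overlap, and its log2 fold change was −1.53 ± 0.35 (SE, adjusted p = 0.00187). The immunoproteasome subunit Psmb8 had 6.49, 10.1, 7.60 and 7.73 CPM in DC goblet cells, against 18.3, 15.5, 17.1 and 22.5 CPM in other DC cells (−1.21 ± 0.14 (SE, adjusted p = 3.38e-07)). Lower levels in goblet cells were also called for Irf1, a factor induced by interferon gamma, with 96.7, 169, 161 and 161 CPM in DC goblet cells, against 263, 199, 277 and 289.6 CPM in other DC cells (−0.81 ± 0.17, SE). Tap1, the peptide transporter of antigen presentation, had 12.9, 14.3, 13.9 and 14.2 CPM in DC goblet cells, against 22.2, 16.7, 17.3 and 23.3 CPM in other DC cells (−0.53 ± 0.17, SE).

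Gbp7 and Irgm1, an immunity-related GTPase that regulates autophagy, were called higher in DC goblet cells by small margins. Gbp7 had 11.46, 14.6, 12.97 and 10.7 CPM in DC goblet cells, against 9.25, 6.12, 6.80 and 8.22 CPM in other DC cells, with a log2 fold change of 0.70 ± 0.26 (SE, adjusted p = 0.0312). Irgm1 had 33.96, 29.3, 33.4 and 29.1 CPM in DC goblet cells, against 25.9, 24.6, 22.7 and 25.8 CPM in other DC cells, with 0.35 ± 0.14 (SE, adjusted p = 0.0393). Groups did not overlap for either gene, yet neither call held in all 16 fits that left out 1 library: Gbp7 was lost without goblet replicate 2 or 3 or without replicate 2 or 3 of the other cells, and Irgm1 without goblet replicate 1 or 3 or any 1 replicate of the other cells. The remaining 5 gamma-like genes, Gbp3, Gbp6, Igtp, Iigp1 and Psmb9, were not called in DC.

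Several markers moved with this comparison. The 5 surface differentiation markers, all called lower, summed to 1229 to 1557 CPM in DC goblet cells against 6663 to 8357 CPM in other DC cells. The 11 lymphocyte markers summed to 2.08 to 3.03 CPM in DC goblet cells against 7.04 to 8.35 CPM in other DC cells, 5 of them called lower, and 4 of the 11 were at 0 in all 4 goblet libraries. The part of either in the members' differences was not tested.

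In Si8 the goblet sort was again lower for most members. There, 28 of 41 were called lower in goblet cells (68.3%, against 31.8% of all tested genes) and 4 higher (9.76%, against 33.1%), and the median log2 fold change was −0.71, with 0.03 for all tested genes. The type I/III-like genes had 21 lower, 2 higher and a median of −0.79, and the gamma-like genes had 7 lower, 2 higher and a median of −0.36. Goblet libraries lay wholly below the others for 15 of 41 members, against 27.3% of all tested genes, and wholly above for 3, against 26.7%. The groups thus separated for fewer members than in DC, and nothing particular to the members is read from these Si8 counts of separation.

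Ifit1 had 17.8, 10.3, 20.7 and 14.5 CPM in Si8 goblet cells, against 69.4, 32.6, 54.7 and 61.5 CPM in other Si8 cells. Ifit3 had 2.16, 1.41, 1.82 and 1.53 CPM in Si8 goblet cells, against 20.6, 7.42, 13.9 and 13.2 CPM in other Si8 cells. Ifit2 had 6.74, 4.23, 5.37 and 4.72 CPM in Si8 goblet cells, against 37.1, 16.2, 20.4 and 16.3 CPM in other Si8 cells. No IFIT gene overlapped, and the log2 fold changes were −1.79 ± 0.24 (SE, adjusted p = 6.61e-06) for Ifit1, −2.99 ± 0.24 (SE, adjusted p = 2.04e-09) for Ifit3 and −2.09 ± 0.22 (SE, adjusted p = 1.96e-07) for Ifit2. Isg15 had 7.99, 5.46, 13.3 and 8.15 CPM in Si8 goblet cells, against 25.6, 12.9, 26.03 and 23.3 CPM in other Si8 cells, so that the highest goblet library passed the lowest other library, and the log2 fold change was −1.33 ± 0.25 (SE, adjusted p = 0.000204). Usp18 had 10.3, 5.43, 10.5 and 6.64 CPM in Si8 goblet cells, against 24.1, 9.73, 18.4 and 17.7 CPM in other Si8 cells (−1.09 ± 0.25 (SE, adjusted p = 0.00116)), again with overlap. The Mx2 groups were apart, at 7.94, 7.45, 8.30 and 5.05 CPM in Si8 goblet cells, against 25.3, 19.7, 25.8 and 19.5 CPM in other Si8 cells (−1.65 ± 0.15 (SE, adjusted p = 1.75e-08)).

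Parp14 was the type I/III-like gene with the highest level per kilobase of merged annotated exon in other Si8 cells, a rank that depends on this length. It had 174, 134, 209 and 173 CPM in Si8 goblet cells, against 533, 397, 614 and 617 CPM in other Si8 cells, a log2 fold change of −1.65 ± 0.13 (SE, adjusted p = 1.97e-09). Irf7 had 69.6, 60.7, 106 and 76.01 CPM in Si8 goblet cells, against 168, 113, 218 and 210.1 CPM in other Si8 cells (−1.18 ± 0.18 (SE, adjusted p = 2.81e-05)). Neither gene overlapped. Stat2, Ddx58 and Cmpk2, which had not been called in DC, were lower in Si8 goblet cells. Stat2 had 68.3, 63.8, 95.997 and 69.4 CPM in Si8 goblet cells, against 121, 85.6, 151 and 133 CPM in other Si8 cells (−0.72 ± 0.14, SE). For Ddx58 the values were 39.4, 33.04, 44.3 and 38.4 CPM in Si8 goblet cells, against 76.04, 57.9, 75.6 and 74.6 CPM in other Si8 cells (−0.87 ± 0.11, SE), and for Cmpk2 they were 26.2, 19.5, 32.1 and 24.8 CPM against 52.4, 34.1, 46.8 and 56.3 CPM (−0.89 ± 0.14, SE). Of these 3, only Stat2 overlapped between the groups. Ifi35, which did not overlap either, had 33.997, 28.4, 36.7 and 31.8 CPM in Si8 goblet cells, against 67.5, 52.5, 78.9 and 78.9 CPM in other Si8 cells (−1.09 ± 0.11, SE).

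The synthetase family was mixed in Si8. Oas2 was higher in goblet cells: it had 16.1, 9.89, 24.7 and 19.4 CPM in Si8 goblet cells, against 7.86, 3.49, 7.70 and 7.03 CPM in other Si8 cells, without overlap and with a log2 fold change of 1.43 ± 0.25 (SE, adjusted p = 8.56e-05). Oasl2 was lower, with 61.6, 39.7, 89.8 and 68.4 CPM in Si8 goblet cells, against 116, 60.8, 121 and 126 CPM in other Si8 cells (−0.71 ± 0.25 (SE, adjusted p = 0.0215)), although the groups overlapped and the call was lost in 4 of 24 alternatives, with no filter on low counts or without goblet replicate 2 or replicate 3 or 4 of the other cells (adjusted p up to 0.0876). Oas3 was not called, at 56.7, 33.99, 114 and 72.6 CPM in Si8 goblet cells, against 70.2, 33.2, 83.96 and 101 CPM in other Si8 cells (−0.05 ± 0.34 (SE, adjusted p = 0.899)). Nor was Oasl1, at 69.3, 53.02, 133 and 107 CPM in Si8 goblet cells, against 149.8, 71.5, 158 and 155 CPM in other Si8 cells (−0.56 ± 0.26 (SE, adjusted p = 0.0726)). Oas1a was not called and Oas1g was called lower (−0.87 ± 0.17, SE). Of 6 synthetase genes measured, 1 was thus called higher, 2 lower and 3 not called in Si8 goblet cells, where 33.1% of all tested genes were called higher and 31.8% lower.

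Bst2 was called higher in Si8 goblet cells too, with 15.1, 11.4, 13.2 and 11.9 CPM in Si8 goblet cells, against 11.4, 7.42, 10.7 and 9.40 CPM in other Si8 cells and a log2 fold change of 0.41 ± 0.14 (SE, adjusted p = 0.0135). The lowest goblet library was above the highest other library by less than this rounding shows, and the call was lost without goblet replicate 1 (adjusted p = 0.0592). Bst2 was the only member called higher in goblet cells of both regions, a pattern that 18.6% of tested genes showed. Lower in both regions were 21 members, 17 type I/III-like and 4 gamma-like, against 18.2% of tested genes. Rtp4 was lower with overlap, at 6.44, 3.53, 7.82 and 6.75 CPM in Si8 goblet cells, against 10.6, 6.01, 9.49 and 11.8 CPM in other Si8 cells (−0.62 ± 0.22 (SE, adjusted p = 0.0196)). The Rtp4 call was lost without goblet replicate 2 or replicate 4 of the other cells (adjusted p up to 0.0673). Zbp1 (67.6, 56.4, 115 and 69.9 CPM in Si8 goblet cells, against 91.97, 62.9, 111 and 93.97 CPM in other Si8 cells) and Rsad2 (36.8, 21.8, 56.7 and 35.9 against 48.6, 18.1, 33.4 and 36.1 CPM) were not called.

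Among the gamma-like genes, Gbp2 stood out in Si8 by its direction. It had 98.5, 59.6, 170.2 and 64.6 CPM in Si8 goblet cells, against 26.6, 15.2, 23.6 and 15.3 CPM in other Si8 cells. All 4 goblet libraries exceeded all 4 others, and the log2 fold change was 2.29 ± 0.31 (SE, adjusted p = 1.54e-05), or 4.88-fold higher. Its neighbour on chromosome 3, Gbp3, had 7.43, 4.10, 10.1 and 5.61 CPM in Si8 goblet cells, against 5.78, 3.47, 4.65 and 3.53 CPM in other Si8 cells (0.64 ± 0.26 (SE, adjusted p = 0.0397)). The groups of Gbp3 overlapped, and its call was lost in 9 of 24 alternatives, up to an adjusted p of 0.181 without goblet replicate 3. Gbp7, on the same chromosome, was not called (37.8, 21.6, 46.1 and 25.03 CPM in Si8 goblet cells, against 40.1, 27.4, 38.1 and 21.3 CPM in other Si8 cells).

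Gbp6, on chromosome 5, was lower in Si8 goblet cells: it had 13.4, 7.12, 13.2 and 7.70 CPM in Si8 goblet cells, against 51.9, 32.7, 49.4 and 48.1 CPM in other Si8 cells, with no overlap and a log2 fold change of −2.14 ± 0.23 (SE, adjusted p = 5.23e-07). Nlrc5 had 38.4, 24.001, 38.8 and 26.96 CPM in Si8 goblet cells, against 132, 79.7, 158 and 121 CPM in other Si8 cells (−1.94 ± 0.20 (SE, adjusted p = 3.33e-07)). The GTPase Igtp, which acts on vacuoles of intracellular parasites, had 33.5, 19.01, 32.4 and 18.4 CPM in Si8 goblet cells, against 78.96, 54.6, 72.3 and 47.1 CPM in other Si8 cells (−1.29 ± 0.23 (SE, adjusted p = 0.000149)). Neither Nlrc5 nor Igtp overlapped. Tap1 was lower without overlap (122, 92.3, 124 and 70.99 CPM in Si8 goblet cells, against 202, 181, 236 and 177 CPM in other Si8 cells, −0.96 ± 0.15, SE). Psmb8 and Irf1 passed with smaller differences: Psmb8 had 113, 89.1, 106 and 84.1 CPM in Si8 goblet cells, against 129, 113, 123 and 116 CPM in other Si8 cells (−0.30 ± 0.12 (SE, adjusted p = 0.0318)), and Irf1 had 287, 326, 419 and 276 CPM against 401, 478, 537 and 396 CPM (−0.47 ± 0.17 (SE, adjusted p = 0.0244)). Both calls depended on single libraries. That of Psmb8 was lost in 7 of 24 alternatives (among them upper-quartile scaling and the fits without goblet replicate 2 or 4, replicate 1 or 3 of the other cells or replicate 3 of the other DC cells, adjusted p up to 0.113). That of Irf1 was lost in 6 of 24 alternatives (among them no filter on low counts and the fits without goblet replicate 1 or 4 or replicate 2 or 3 of the other cells, adjusted p up to 0.0840). Irgm1 (95.1, 72.5, 89.9 and 70.1 CPM in Si8 goblet cells, against 96.1, 74.9, 71.2 and 55.6 CPM in other Si8 cells) and Iigp1 (19.3, 7.76, 14.2 and 5.41 against 21.2, 10.5, 10.9 and 6.51 CPM) were not called.

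All 11 lymphocyte markers were called lower in Si8 goblet cells, and their sum was 14.4 to 24.7 CPM in Si8 goblet cells against 252 to 382 CPM in other Si8 cells, with none at 0 in either sort. Enterocyte markers were lower as well (6 of 6, 1019.6 to 1692 CPM in Si8 goblet cells against 7879 to 15444 CPM in other Si8 cells), and surface differentiation markers in 4 of 5. Paneth markers were higher in 5 of 5. The part of these cell types in the members' differences was not tested.

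**Figure D2:**
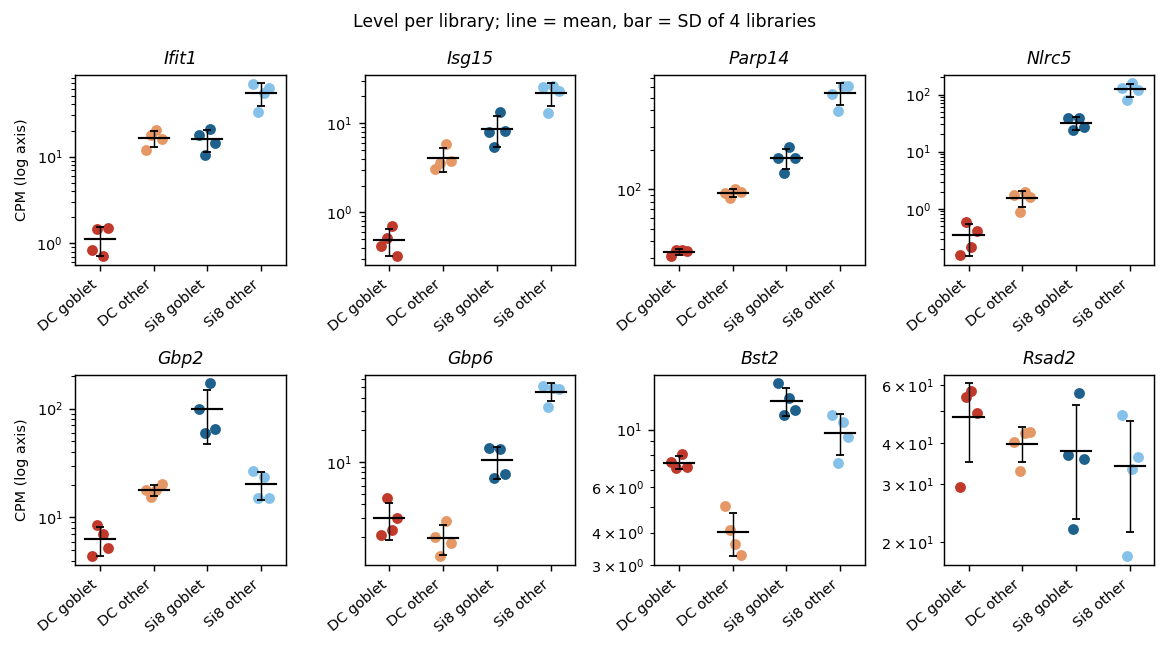
CPM on a log axis in each library (points) of the 4 groups for 8 members, with the mean (line) and SD (bar) of 4 libraries. Ifit1, Isg15, Parp14 and Nlrc5 are lower in goblet cells in both regions, Gbp2 is lower in goblet cells in DC and higher in Si8, Gbp6 is lower in goblet cells in Si8, and the 4 groups of Rsad2 overlap.

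Whether the goblet difference itself changed with region was tested as DC minus Si8, where a negative value means a difference that is lower in DC. For 18 of 41 members it was called, 13 negative (31.7%, against 16.5% of all tested genes) and 5 positive (12.2%, against 15.6%). The median was −0.30 for the members and −0.03 for all tested genes. That of the members moved to −0.16 without replicate 2 of the other Si8 cells, −0.19 without DC goblet replicate 1 and −0.20 without Si8 goblet replicate 3. Of the negative ones 11 were type I/III-like, and the goblet difference was deeper in DC for Ifit1 (−2.08 ± 0.43 (SE, adjusted p = 0.00124)), Oas3 (−2.09 ± 0.63 (SE, adjusted p = 0.0206)), Oasl2 (−2.03 ± 0.42 (SE, adjusted p = 0.00144)), Rtp4 (−1.94 ± 0.37 (SE, adjusted p = 0.000412)) and Isg15 (−1.71 ± 0.53 (SE, adjusted p = 0.0193)). The negative value of Oas2 (−1.39 ± 0.44 (SE, adjusted p = 0.0223)) came with a goblet difference near 0 in DC and a positive one in Si8. The Isg15 call did not hold without DC goblet replicate 4 (adjusted p = 0.0584). The Oas3 call did not hold without DC goblet replicate 3 (adjusted p = 0.0509) or with no filter on low counts (adjusted p = 0.0521).

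Gbp2 had the most negative value of all members, −3.82 ± 0.47 (SE, adjusted p = 1.88e-05), and was called lower in DC goblet cells and higher in Si8 goblet cells, a combination shown by 2.29% of tested genes. No member was called higher in DC goblet cells and lower in Si8 goblet cells, as 2.24% of tested genes were. Gbp6 had the most positive value, 2.72 ± 0.41 (SE, adjusted p = 7.05e-05), with a DC goblet difference that did not pass (0.59 ± 0.34 (SE, adjusted p = 0.159)). In DC, Gbp6 had 2.09, 4.63, 2.30 and 3.01 CPM in goblet cells, against 1.997, 1.31, 2.78 and 1.75 CPM in other cells. The other positive calls were Ddx58 (1.04 ± 0.16 (SE, adjusted p = 6.11e-05)), Cmpk2 (0.77 ± 0.22 (SE, adjusted p = 0.0104)), Stat2 (0.65 ± 0.20 (SE, adjusted p = 0.0203)) and Ifi35 (0.64 ± 0.17 (SE, adjusted p = 0.00644)), whose goblet differences were more negative in Si8. Stat2 did not pass without replicate 3 of the other DC cells (adjusted p = 0.0574). No difference between regions was called for Ifit2, Ifit3, Parp9, Parp14, Mx2, Usp18 or Nlrc5, and for Parp14 the estimate was 0.15 ± 0.18 (SE). The estimates of Ifit3 (−1.25 ± 0.63, SE), Usp18 (−0.84 ± 0.54, SE) and Mx2 (0.71 ± 0.34, SE) were larger and imprecise. For these genes the lack of a call does not show equal goblet differences in the regions.

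**Figure D3:**
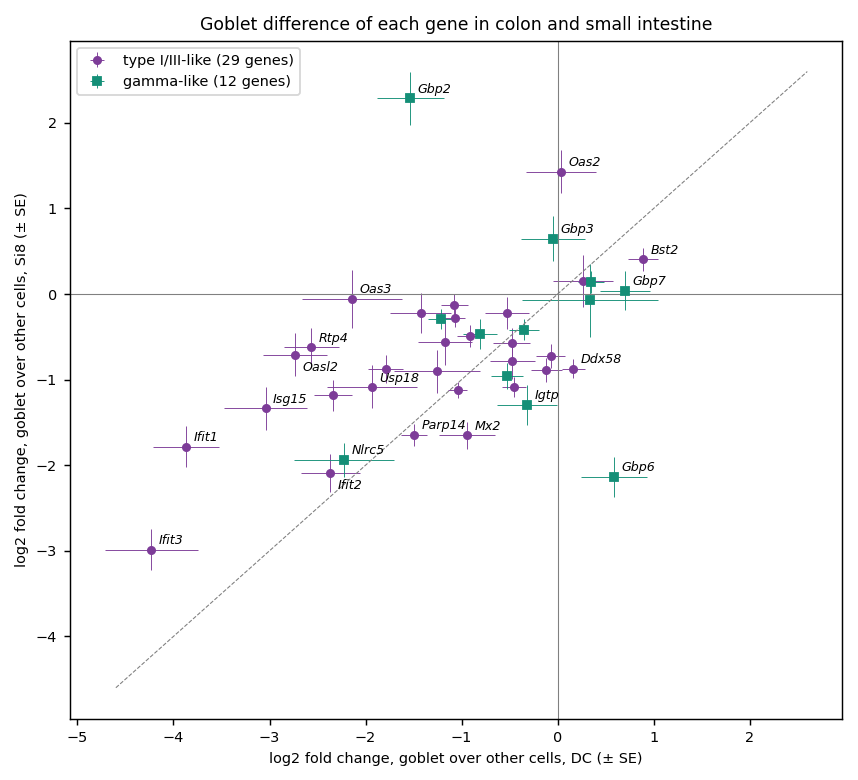
Log2 fold change of goblet over other cells in DC (horizontal) and in Si8 (vertical) for each member, with bars of 1 SE, as circles for 29 type I/III-like and squares for 12 gamma-like genes. The dashed line marks equal differences; most genes lie at the lower left, Gbp2 lies far above the line (−1.53 in DC, 2.29 in Si8) and Gbp6 far below it (0.59 in DC, −2.14 in Si8).

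Nearly all members were lower in DC than in Si8, although region and count table cannot be told apart. In goblet cells, 40 of 41 were called lower in DC (97.6%, against 31.5% of all tested genes) and the median log2 fold change, DC over Si8, was −2.23, with −0.02 for all tested genes. The DC goblet libraries lay wholly below the Si8 goblet libraries for 39 of 41 members, against 28.9% of tested genes, and wholly above for 0, against 28.3%. In other cells 36 of 41 were called lower in DC (87.8%, against 33.6%), the median was −1.90 with 0.00 for all tested genes, and the DC libraries lay wholly below for 35 members, against 29.9%, and wholly above for 0, against 29.7%. edgeR called 0 members higher in DC in either sort (30.6% of tested genes in goblet cells and 33.3% in other cells were), as did DESeq2, and at an unadjusted p under 0.05 the number was also 0. The regional comparisons use the same 16 libraries as the goblet comparisons and are not independent of them.

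Nlrc5 differed most. It averaged 0.345 ± 0.196 CPM in DC goblet cells and 32.04 ± 7.67 CPM in Si8 goblet cells (SD, n = 4 each), a log2 fold change of −6.57 ± 0.35 (SE, adjusted p = 6.14e-11), and 1.57 ± 0.477 CPM in other DC cells and 123 ± 32.5 CPM in other Si8 cells, −6.29 ± 0.28 (SE, adjusted p = 3.47e-12). The DC goblet level rests on 24 counts over 4 libraries. Oas3 followed in goblet cells, at −5.47 ± 0.48 (SE, adjusted p = 2e-07), and Oasl2 at −4.46 ± 0.32 (SE, adjusted p = 1.01e-08). The antigen-processing genes Psmb8, Psmb9 and Tap1 lay between −3.63 and −2.89 in goblet cells and between −3.32 and −2.71 in other cells. In other cells the largest type I/III-like difference was that of Mx2, −4.13 ± 0.20 (SE, adjusted p = 5.11e-13), and among gamma-like genes Gbp6 (−4.54 ± 0.29 (SE, adjusted p = 4.04e-10)) and Igtp (−3.66 ± 0.28 (SE, adjusted p = 4.49e-09)) came after Nlrc5. Iigp1, another GTPase of the immunity-related family, averaged 1.54 ± 1.16 CPM in DC goblet cells and 11.7 ± 6.28 CPM in Si8 goblet cells, and 1.13 ± 0.458 CPM in other DC cells and 12.3 ± 6.25 CPM in other Si8 cells (SD, n = 4 each), and was lower in DC in both sorts.

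Rsad2 was the exception in goblet cells, with 0.34 ± 0.31 (SE, adjusted p = 0.348), and the only member that no comparison called. Its 16 libraries ranged from 18.1 to 57.5 CPM, and all 4 groups overlapped. In other cells Rsad2, Gbp2 (−0.17 ± 0.32 (SE, adjusted p = 0.658)), Rtp4 (−0.29 ± 0.23 (SE, adjusted p = 0.267)), Oas1a (0.17 ± 0.13, SE) and Oas1g (−0.09 ± 0.17, SE) were not called. The high level of Gbp2 was in the Si8 goblet libraries: it averaged 6.28 ± 1.82, 17.9 ± 2.03 and 20.1 ± 5.80 CPM in DC goblet, other DC and other Si8 cells and 98.2 ± 51.02 CPM in Si8 goblet cells (SD, n = 4 each). Markers moved with region too: lymphocyte markers in other cells summed to 7.04 to 8.35 CPM in DC and 252 to 382 CPM in Si8, and in goblet cells to 2.08 to 3.03 CPM in DC and 14.4 to 24.7 CPM in Si8. Their part in the regional difference was not tested.

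**Figure D4:**
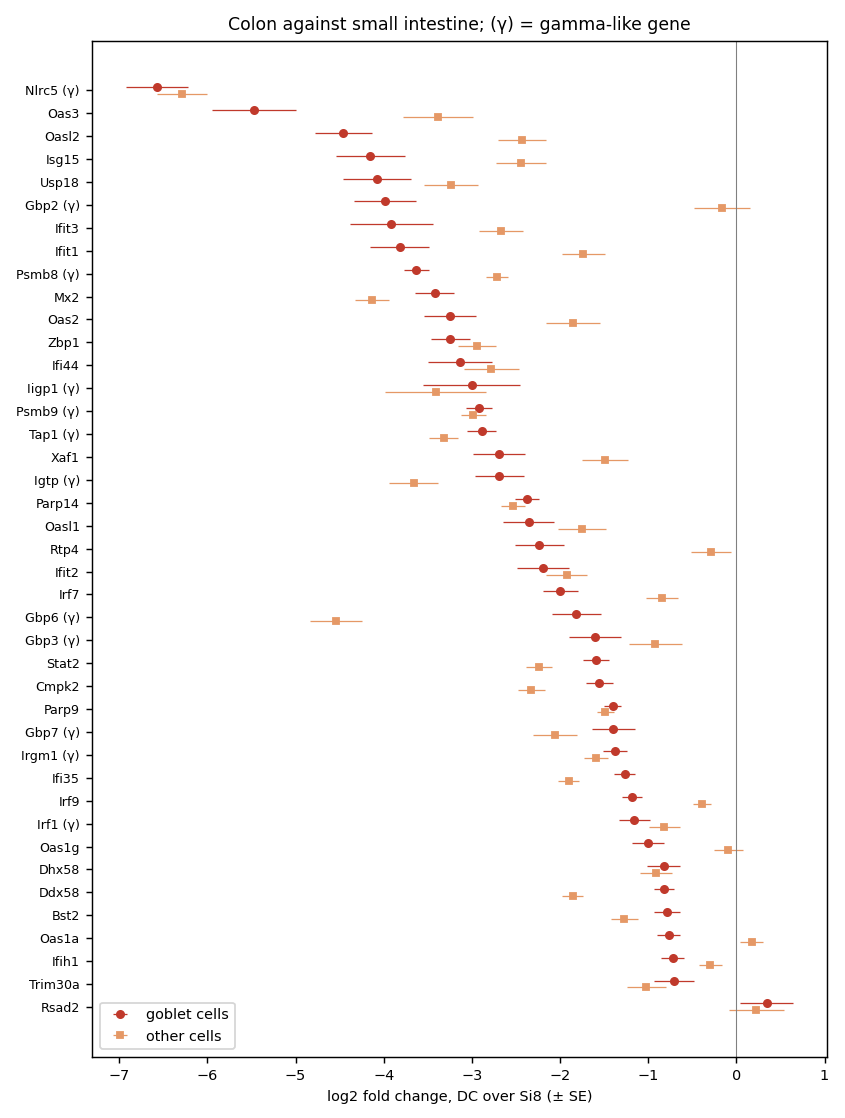
Log2 fold change of DC over Si8 for each member in goblet cells (circles) and in other cells (squares), with bars of 1 SE, sorted by the goblet value; (γ) marks gamma-like genes. Nlrc5 is lowest in both sorts (−6.57 and −6.29), Rsad2 alone lies right of 0 in goblet cells, and the symbols of Gbp2 and of Gbp6 stand far apart.

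Levels of different genes were compared per kilobase of exon. The length merged all annotated exons of a gene, so it can exceed the length of any single transcript. For Irf7 it was 3776 bases in 1 unbroken block, and for Psmb8 3381 bases in 4 blocks. The ranks that follow depend on these lengths, and ranks by the length of a single transcript were not tested. Irf1 had the highest level of the gamma-like genes in every group, at 36.9 CPM per kb in DC goblet cells, 64.7 in other DC cells, 82.3 in Si8 goblet cells and 114 in other Si8 cells. The second gamma-like gene was Irgm1 in DC goblet cells (5.41 CPM per kb), Gbp2 in other DC cells (7.12) and in Si8 goblet cells (39.04) and Tap1 in other Si8 cells (36.3). The leading type I/III-like gene changed as well: it was Rsad2 in DC goblet cells (11.05 CPM per kb), Irf7 in other DC cells (26.1), Oasl1 in Si8 goblet cells (34.7) and Parp14 in other Si8 cells (58.04). Nlrc5 was last among the gamma-like genes in both DC sorts (0.0406 CPM per kb in goblet cells, 0.184 in other cells) but not in Si8, where its levels in goblet and other cells were 3.77 and 14.5 CPM per kb. Summed over the 29 type I/III-like genes, the libraries held 341 to 398 CPM in DC goblet cells, 725 to 785 in other DC cells, 861 to 1536 in Si8 goblet cells and 1506 to 2437 in other Si8 cells. The 12 gamma-like genes summed to 179 to 268, 291 to 412, 689.6 to 1112 and 1059.5 to 1388 CPM in the same order.

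Many members were high or low in the same libraries. The summed type I/III-like level of the Si8 goblet libraries was 1123, 861, 1536 and 1171 CPM in replicates 1 to 4, and that of the other Si8 libraries 2271, 1506, 2431 and 2437 CPM. Replicate 2 of the goblet cells was lowest for 27 of 29 type I/III-like genes and replicate 3 was highest for 25 of 29, while replicate 2 of the other cells was lowest for 28 of 29. The gamma-like genes were ordered otherwise: replicates 1 and 3 shared the highest value of all 12 genes in goblet cells (6 genes each) and in other cells (8 and 4), and replicates 2 and 4 the lowest (5 and 7 in goblet cells, 6 each in other cells). In DC the type I/III-like sums spread less, from 341 to 398 CPM in goblet cells and from 725 to 785 CPM in other cells. For the gamma-like genes of DC, goblet replicate 2 was highest for 11 of 12 and replicate 1 lowest for 9, and replicate 2 of the other cells was lowest for 11. Goblet replicate 1 and other-cell replicate 2 of DC bear the consecutive library numbers 13 and 14, and the low Si8 pair of replicates 2 bears 4 and 3, but the labels do not say that such libraries came from 1 animal, and no pairing entered the fit.

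**Figure D5:**
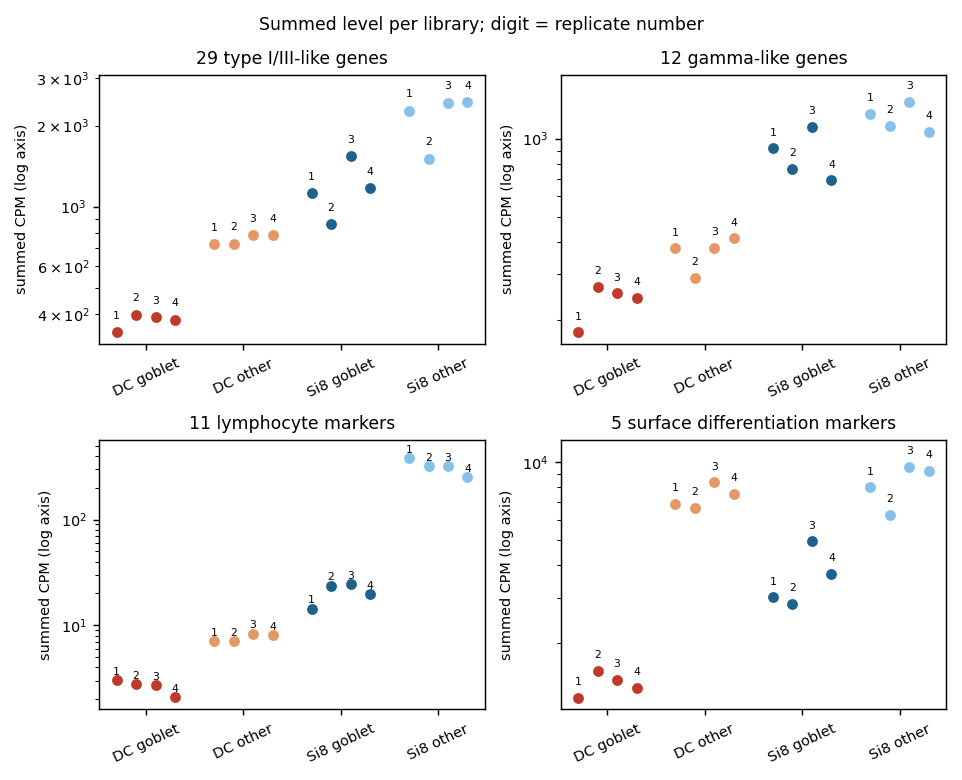
Summed CPM per library on a log axis for the 29 type I/III-like genes, the 12 gamma-like genes, 11 lymphocyte markers and 5 surface differentiation markers, with the replicate number above each point. Replicate 2 is low among type I/III-like genes in both Si8 sorts (861 CPM in goblet cells, 1506 CPM in other cells), and lymphocyte markers are highest in other Si8 cells.

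The 2 low Si8 libraries were left out together in a further fit, chosen after the data were seen. In it, 28 and 27 members were called lower in goblet cells of DC and Si8, and 40 and 36 of the members called lower in DC against Si8 were called again. In the same libraries the surface differentiation markers summed to 3007, 2834, 4944 and 3691 CPM in Si8 goblet cells and 7996, 6280.1, 9587 and 9258 CPM in other Si8 cells, replicates 1 to 4, with replicate 2 the lowest in both. The part of these markers in the spread of the members was not tested.

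The interferons themselves were barely detected. Of 9 interferon genes none had enough counts to be tested, and their sum was 0 to 0.139 CPM in DC goblet cells, 0 to 0.0604 in other DC cells, 0.0256 to 0.160 in Si8 goblet cells and 0.389 to 0.766 in other Si8 cells. A library with 0 counts allows a level of up to 0.0754 to 0.220 CPM per gene (3 counts, counting error only). Most of the last value was Ifng, the gene of interferon gamma, at 0.580 ± 0.189 CPM (SD, n = 4), beside lymphocyte markers that were also highest in that group. Genes listed as markers of plasmacytoid dendritic cells, which secrete type I interferon, gave mixed levels, and not all of them can be read as a sign of such cells. Siglech averaged 0.0688 ± 0.104, 0.117 ± 0.0470, 0.186 ± 0.123 and 0.360 ± 0.238 CPM in DC goblet, other DC, Si8 goblet and other Si8 cells (SD, n = 4 each). In the same group order Ccr9, which lymphocytes of the gut carry too, averaged 0.0531 ± 0.0669, 0.142 ± 0.0975, 0.515 ± 0.140 and 6.77 ± 0.518 CPM. Bcl11a averaged 4.62 ± 0.640, 5.36 ± 0.397, 8.02 ± 1.66 and 5.33 ± 1.70 CPM. Klk1 averaged 2031 ± 134, 423 ± 37.1, 434 ± 65.3 and 4.69 ± 1.35 CPM, in DC goblet cells far above Siglech. The levels of Klk1 and Bcl11a cannot be told apart from expression by the sorted epithelial cells. The part of such cells in the members' differences was not tested.

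Receptor genes were mostly lower in goblet cells. The counts of this and the next lists stand beside 27.9% of all tested genes called lower and 27.8% higher in DC goblet cells, and 31.8% lower and 33.1% higher in Si8 goblet cells. Nothing particular to a list is read from them. In DC, 5 of 6 were called lower and 1 higher, and in Si8 4 were called lower. Ifnlr1, the chain specific to type III interferon, averaged 10.9 ± 1.41 CPM in DC goblet cells and 23.2 ± 1.77 CPM in other DC cells, and 16.1 ± 2.36 CPM in Si8 goblet cells and 33.8 ± 7.12 CPM in other Si8 cells (SD, n = 4 each). Its log2 fold change was −1.08 ± 0.14 (SE, adjusted p = 2.69e-06) in DC and −1.07 ± 0.13 (SE, adjusted p = 1.12e-06) in Si8, and the estimate of their difference was −0.01 ± 0.19 (SE). Ifngr1, the ligand-binding chain for interferon gamma, averaged 133 ± 11.2 CPM in DC goblet cells and 390.2 ± 15.7 CPM in other DC cells (−1.56 ± 0.09 (SE, adjusted p = 1.17e-11)), and 193 ± 21.5 CPM in Si8 goblet cells and 265 ± 17.8 CPM in other Si8 cells (−0.46 ± 0.09 (SE, adjusted p = 0.000117)). That difference was larger in DC (−1.10 ± 0.12 (SE, adjusted p = 8.37e-07)). Ifngr2, Ifnar1 and, in DC, Il10rb were lower too, whereas Ifnar2 was higher in DC goblet cells (0.64 ± 0.21 (SE, adjusted p = 0.0156)).

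The Janus kinases, which sit on the receptors, were tested next. In DC only Jak2 of 3 such genes was called lower in goblet cells (−0.88 ± 0.13 (SE, adjusted p = 1.38e-05)), whereas in Si8 Jak1, Jak2 and Tyk2 were, between −0.74 and −0.21. A change of this difference with region was called for Tyk2 (0.71 ± 0.12 (SE, adjusted p = 9.8e-05)) and not for Jak1 or Jak2. Of 5 negative regulators 4 were lower in DC goblet cells, and 3 were lower and 1, the phosphatase Ptpn2, higher in Si8 goblet cells. Socs1, which blocks Janus kinases, was lower in both regions (−0.85 ± 0.27 (SE, adjusted p = 0.0116) in DC, −1.16 ± 0.19 (SE, adjusted p = 2.39e-05) in Si8). Of 12 nucleic acid sensing genes 10 were tested, and 5 were lower in DC goblet cells. In Si8 6 were lower and 2 higher, the adaptor Mavs (0.29 ± 0.09, SE) and Mb21d1, the gene of the DNA sensor cGAS (0.71 ± 0.15, SE). Irf3, the factor these sensors activate, was called in neither region (0.04 ± 0.07 in DC, 0.00 ± 0.06 in Si8, SE).

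Antigen presentation genes were also lower in DC than in Si8. Of 8 MHC class I genes outside the member list, 6 were lower and 2 higher in DC goblet cells, and 6 were lower and 1 higher in Si8 goblet cells. B2m, the class I light chain, averaged 130.5 ± 10.5 CPM in DC goblet cells and 234 ± 4.58 CPM in other DC cells (−0.84 ± 0.13, SE), and 438 ± 83.03 CPM in Si8 goblet cells and 803 ± 149 CPM in other Si8 cells (−0.88 ± 0.13, SE). The genes called higher were the chaperone Calr in both regions and Erap1 in DC. All 8 were lower in DC than in Si8 in both sorts, with medians of −0.93 in goblet cells and −1.23 in other cells. The 7 MHC class II genes differed more by region: all were lower in DC, with medians of −7.41 in goblet cells and −6.27 in other cells. Of all tested genes, 31.5% in goblet cells and 33.6% in other cells were called lower in DC. Region and count table cannot be told apart here either. Ciita, their transactivator and a relative of Nlrc5, averaged 0.147 ± 0.200 CPM in DC goblet cells and 21.9 ± 3.39 CPM in Si8 goblet cells, and 0.912 ± 0.336 CPM in other DC cells and 87.7 ± 16.8 CPM in other Si8 cells (SD, n = 4 each). Its log2 fold changes, −7.41 ± 0.36 (SE, adjusted p = 4.71e-12) and −6.58 ± 0.26 (SE, adjusted p = 1.73e-13), lay near those of Nlrc5. Ciita had 0, 0.441, 0.0547 and 0.0926 CPM in the DC goblet libraries, where 3 counts equal 0.157, 0.220, 0.164 and 0.139 CPM. H2-Aa, at 0.157 to 0.294 CPM there, was near that level too. The size of the Ciita fold change in goblet cells, and of the class II median there, is thus imprecise. Between sorts, 6 class II genes were lower and H2-DMb1 was higher in DC goblet cells, and all 7 were lower in Si8 goblet cells. B, plasma and myeloid markers, which include cells that carry class II, summed to 0.547 to 1.18 CPM in DC goblet cells, 4.81 to 6.95 in other DC cells, 5.35 to 28.9 in Si8 goblet cells and 43.7 to 101 in other Si8 cells, and their part was not tested.

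Some members share sequence with other genes, and how the authors' counting treated such reads is not given in the sources used here. Aligned transcripts were 99.2% identical between Gbp6 and Gbp10 over 3131 bases, 97.6% between Oas1a and Oas1g over 1861, 97.8% between Ifit3 and Ifit3b over 1700 and 95.3% between Mx2 and Mx1 over 843, so the values of Gbp6, Oas1a, Oas1g, Ifit3 and Mx2 are uncertain to that extent. Identity was 95.2% between Isg15 and AC151275.1 over 482 bases and 97.7% between Trim30a and Trim30d over 301. The values of Isg15 and Trim30a are uncertain in the same way. Exons overlap on opposite strands for Psmb8 and Gm20496 (498 bases), Parp9 and Dtx3l (458 bases) and Psmb9 and Tap1 (212 bases), among others. On the same strand the longest overlaps were Gbp6 with Gm43302 (1726 bases), Gbp7 with Gm43802 (637 bases) and Rtp4 with Gm45338 (296 bases). Igtp with Irgm2 (162 bases) and Irf9 with Rnf31 (123 bases) came next. Transcripts of Gbp6 and Gm43302 were 99.85% identical over 3923 bases. The values of Gbp6, Gbp7 and Rtp4 are uncertain to that extent too. The library kit keeps strand, but the strand setting of the counting is likewise not given in the sources used here.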

How the data were processed

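RNA of 16 sorted libraries was sequenced paired-end after ribosomal depletion. The authors deposited 2 tables of raw counts per gene, 1 per region, each with 46882 rows; per the submitters' processing notes build mm10 was used with the tools STAR (2.4.0f), HTSeq (0.6.1p1), FastQC (0.11.2) and, for DESeq2, version 1.14, and a deposited normalized table was not used. The tables were joined by gene, leaving out 4 entries with a repeated symbol. One edgeR 4.0.16 quasi-likelihood fit (R 4.3.3, robust, TMM factors, filterByExpr by group) covered all 16 libraries, and p-values were Benjamini-Hochberg adjusted over 16001 tested genes, with a call at an adjusted p under 0.05. SE is the absolute log2 fold change over the root of F. CPM uses TMM-scaled totals, and CPM per kb divides by GENCODE M21 exon length, merged over all transcripts of a gene. The common coefficient of variation was 0.128. Near-identical transcripts were found with blastn 2.17.0 at 95% identity or more.

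Genes named with values were, per comparison and subset, the 4 largest and 4 smallest changes among called members whose higher group averaged 1 CPM or more, members called in opposite directions, and the 3 highest levels per kb per subset; Rsad2 and the other members given values outside this rule were picked after their values were seen. Members and gene lists were chosen with earlier results of these data known, and 1 gene of the signalling list is not reported here. Alternatives covered other scaling (DESeq2 1.42.0 size factors, upper quartile), DESeq2's Wald test, other filters, a minimum fold change of 2, only the 8 libraries compared, library totals without mitochondrial and the most abundant genes, each library left out, and a block on adjacent library numbers.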

Additional observations from a re-analysis of the deposited data

Results flagged for a closer look

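In 7 of 128 groups of 4 libraries, 1 library of a named member stood apart from the other 3 by Dixon's criterion, which flags about 1 in 20 groups by chance. Replicate 2 of the other Si8 cells was low for 3 genes: Oasl1 had 71.5 CPM, with the 3 others at 149.8 to 158 CPM, Oasl2 had 60.8 CPM, with the 3 others at 116 to 126 CPM, and Ddx58 had 57.9 CPM, with the 3 others at 74.6 to 76.04 CPM. In other DC cells, Ifi35 was low in replicate 2 (16.9 CPM, with the 3 others at 19.04 to 19.2 CPM) and Oasl1 was high in replicate 3 (45.1 CPM, with the 3 others at 37.8 to 38.1 CPM). In DC goblet cells, Irf1 was low in replicate 1 (96.7 CPM, with the 3 others at 161 to 169 CPM) and Zbp1 was high in replicate 2 (9.56 CPM, with the 3 others at 7.69 to 7.77 CPM).

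The goblet difference differed between DC and Si8 for 18 members by the interaction test of the edgeR fit. On the log2 scale, DC minus Si8, the value was −3.82 for Gbp2, −2.09 for Oas3, −2.08 for Ifit1, −2.03 for Oasl2, −1.94 for Rtp4 and −1.71 for Isg15. It was −1.39 for Oas2, −1.20 for Xaf1, −1.15 for Irf7, −0.94 for Oas1a, −0.92 for Psmb8, −0.91 for Oas1g and −0.79 for Irf9. Positive values were 2.72 for Gbp6, 1.04 for Ddx58, 0.77 for Cmpk2, 0.65 for Stat2 and 0.64 for Ifi35. The part of cell composition in these values was not tested.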

How the results depend on the processing

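No log2 fold change of a named member changed sign under any alternative, and the counts of members called moved by less than 1.5 times except as follows. Members higher in DC goblet cells numbered 2, against 3 in the reported fit, with DESeq2 size factors, the DESeq2 Wald test, the filter at 1 CPM or no filter. Requiring a fold change of at least 2 left 0 members higher in DC goblet cells (3), 2 higher and 13 lower in Si8 goblet cells (4 and 28), and 2 with a higher goblet difference in DC than in Si8 (5). Leaving out each library in turn gave 1 to 3 higher and 24 to 28 lower in DC goblet cells, with 1 higher without DC goblet replicate 3 or without replicate 2 or 3 of the other DC cells. In Si8 it gave 2 to 5 higher, with 2 without goblet replicate 1, and 24 to 30 lower. For the difference between regions it gave 4 to 7 higher and 11 to 14 lower, and the members lower in DC than in Si8 numbered 40 throughout in goblet cells and 35 to 36 in other cells. The cause was not tested. Apart from the fold minimum, calls of members lost in 5 or more alternatives were Ifih1 for DC against Si8 in other cells (16 of 24 alternatives, adjusted p up to 0.166), Irgm1 (9 of 24 alternatives, 0.159), Dhx58 (8 of 24 alternatives) and Gbp7 (5 of 24 alternatives, 0.120) in DC, and Gbp3 (9 of 24 alternatives), Psmb8 (7 of 24 alternatives) and Irf1 (6 of 24 alternatives) in Si8. Irf9 in Si8 was lost in 4 of 24 alternatives and the region difference of Xaf1 in 3 of 23 alternatives. The labels tie no libraries as pairs, but 1 goblet and 1 other library of a region bear each pair of adjacent library numbers, and a fit with these as a replicate block was added after the data were seen. Deviations from the group means correlated over 16001 genes by 0.0731 to 0.262 within the DC pairs and 0.286 to 0.392 within the Si8 pairs, and each goblet library correlated best with its adjacent one, a hint from the data and not from the design. The block kept every call of the 2 goblet comparisons and of the difference between regions. It gave 4 higher and 30 lower in DC goblet cells (Gbp6, Igtp, Psmb9, Trim30a and Zbp1 added), 4 higher and 31 lower in Si8 goblet cells (Oasl1, Xaf1 and Zbp1 added), and 10 higher and 18 lower for the difference between regions (Bst2, Gbp7, Ifih1, Ifit3, Igtp, Irf1, Mx2, Oasl1, Tap1 and Usp18 added). Shares of all tested genes called are given for the reported fit only. Nothing particular to the members is therefore read from the counts of the block or of the other alternatives. Precision is limited where counts are few, as in DC goblet cells for Ifit3 (8 counts), Nlrc5 (24 counts), Ifi44 (31 counts), Isg15 and Usp18 (35 counts each) and Mx2 (48 counts).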

Other observations

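Genes outside the member list that share sequence or exons with members showed levels of their own, given here as mean ± SD of 4 libraries with no test. Gbp4, a guanylate-binding protein similar to Gbp6 in part of its transcript, had 0.107 ± 0.0529 CPM in DC goblet cells, 0.417 ± 0.142 in other DC cells, 10.8 ± 5.63 in Si8 goblet cells and 7.46 ± 2.90 in other Si8 cells. Gbp8, of the same family, had 0.293 ± 0.240 CPM in DC goblet cells, 1.01 ± 0.165 in other DC cells, 15.3 ± 5.99 in Si8 goblet cells and 44.3 ± 10.1 in other Si8 cells. For Gbp4 the mean was higher in Si8 goblet cells than in other Si8 cells, the direction of Gbp2. The Gbp4 libraries overlapped, however (5.92 to 16.4 CPM in Si8 goblet cells against 4.63 to 10.9 CPM in other Si8 cells), and those of Gbp2 did not. For Gbp8 the mean was lower in Si8 goblet cells, like that of Gbp6. Ifit3b, the close copy of Ifit3, had 0.0573 ± 0.0461 CPM in DC goblet cells, 1.42 ± 0.495 in other DC cells, 0.583 ± 0.195 in Si8 goblet cells and 3.28 ± 1.36 in other Si8 cells. Mx1, the relative of Mx2, had 7.51 ± 1.04 CPM in DC goblet cells, 10.1 ± 1.27 in other DC cells, 19.3 ± 7.46 in Si8 goblet cells and 17.9 ± 5.88 in other Si8 cells. Dtx3l, the ubiquitin ligase that partners Parp9, had 42.8 ± 1.94 CPM in DC goblet cells, 77.2 ± 5.24 in other DC cells, 124 ± 13.02 in Si8 goblet cells and 274 ± 26.7 in other Si8 cells, and Trim30d, the relative of Trim30a, had 10.5 ± 0.437 CPM in DC goblet cells, 39.3 ± 5.02 in other DC cells, 24.2 ± 6.81 in Si8 goblet cells and 83.7 ± 23.1 in other Si8 cells. Irgm2, whose exons overlap those of Igtp, had 14.7 ± 1.93 CPM in DC goblet cells, 11.2 ± 1.86 in other DC cells, 31.6 ± 7.70 in Si8 goblet cells and 56.9 ± 11.1 in other Si8 cells.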
